A study of Mus musculus with 19 samples.

Results

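The genes described here encode proteins that bring fatty acids into cells or bind them inside cells: *Cd36*, *Vldlr*, *Fabp1*, *Fabp2*, *Fabp4*, *Fabp5*, *Fabp7*, *Slc27a1*, *Slc27a2* and *Slc27a4*. They were picked by the gene symbol of their probe sets, with earlier results of these data known. Other Fabp and Slc27a genes on the array lie outside this set and are described further below. The set makes up 10 of the 19505 genes measured in the liver of *Mmut* mutant and control mice. Each was measured by 1 probe set, and each was detected above background on all 10 mutant and all 9 control arrays (detection p under 0.05). In mutant liver, *Cd36*, *Vldlr* and *Fabp7* rose, *Fabp5* fell, and the other 6 did not pass the test.

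*Mmut* encodes methylmalonyl-CoA mutase, a mitochondrial enzyme in the breakdown of propionate. Mutant mice (*Mmut*-ko/ki, n = 10) carried a knockout allele together with a knock-in allele for the missense change MMUT-p.Met700Lys, and control mice (*Mmut*-ki/wt, n = 9) carried the same knock-in allele together with a wild-type allele. Both groups therefore had the knock-in allele, and the controls were not fully wild type. All were males of the C57BL/6N strain, 20 weeks old by the labels, bred in-house from knockout-carrier dams and homozygous knock-in sires, on a diet rich in protein that they ate *ad libitum*. The alleles were not limited to the liver.

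The liver takes up fatty acids that circulate free in plasma or arrive within lipoproteins, and it burns, stores or exports them. CD36 is a membrane glycoprotein that binds long-chain fatty acids, VLDLR is a receptor for triglyceride-rich lipoproteins that carry apolipoprotein E, and the SLC27A proteins (fatty acid transport proteins) couple uptake to activation of the fatty acid with coenzyme A. The FABP proteins are small cytosolic carriers of fatty acids, of which FABP1 is the main form of hepatocytes. Several of these genes are known targets of the peroxisome proliferator-activated receptors (PPARs), nuclear receptors that bind fatty acids and act in pairs with a retinoid X receptor (RXR).

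Signals were read from 1 array per mouse, and all values below are log2 signals normalized between arrays by the authors. Median signals of the arrays ran from 5.19 to 5.25 in mutants and from 5.14 to 5.25 in controls, with 69.8% to 77.1% of probe sets detected in mutants and 68.0% to 72.7% in controls. Signals of the targeted gene *Mmut* did not overlap between the genotypes, lying between 11.18 and 11.90 (median 11.50) in mutants and between 12.80 and 13.53 (median 13.16) in controls. Its log2 change (mutant minus control) was -1.66 ± 0.12 (SE). Rose and fell mean here that the adjusted p of limma, a linear model over all genes with Benjamini-Hochberg adjustment, was below 0.05.

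By this rule 3 of the 10 genes rose, against 4.73% of all genes, and 1 fell, against 5.33% of all genes. Counted in either direction these were 4 of 10, against 10.1% of all genes. All 10 were detected on all arrays, which held for 10849 of the 19505 genes. Among 14106 genes detected on at least 9 arrays 1005 rose and 1154 fell, and among 9752 above the median signal 955 and 1231. These shares are larger than those over all genes. With either filter 3 of the 10 rose and 1 fell. Of 9 related genes outside the 10, given below, 0 passed with limma. The median log2 change of the 10 was 0.29, and that of all 19505 genes was 0.003. No gene of the 10 had groups without overlap, a pattern seen in 1.48% of all genes. With 10 and 9 arrays, the precision is limited by the number of mice. The signals come from whole liver tissue, in which more cells of one type and more RNA per cell cannot be told apart.

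**Figure D1:**
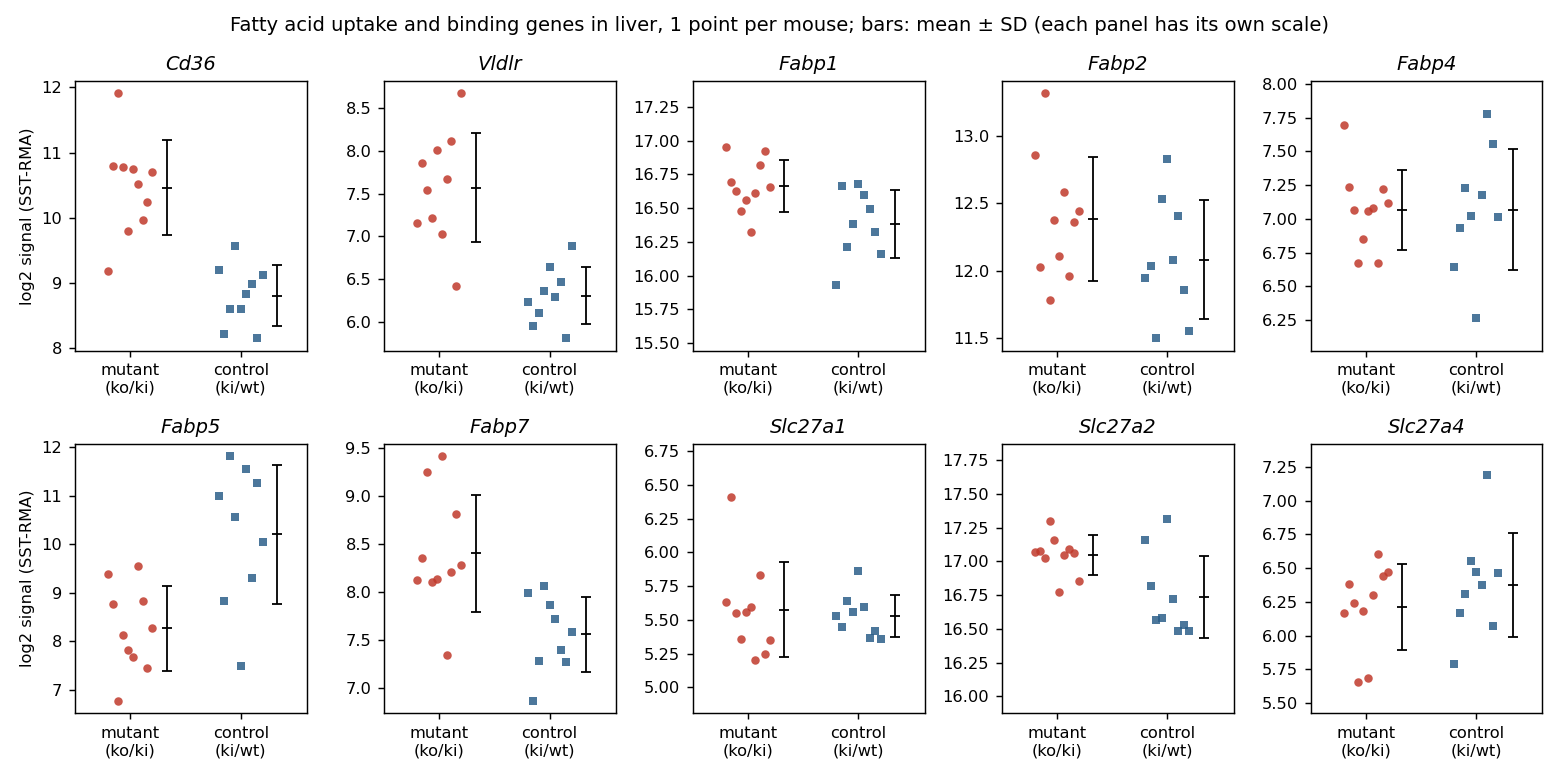
Log2 signal of the 10 genes in each mouse, mutants (circles) left of controls (squares), with the mean and SD as a bar beside the points and a scale of its own for each panel. For *Cd36*, *Vldlr* and *Fabp7*, 9 of 10 mutants lay above every control, while the controls of *Fabp5* spread from 7.48 to 11.82.

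For the 3 genes that rose, and for *Fabp1* as a textbook PPAR target that did not pass the test, the 250 bases upstream of the annotated start are shown as RefSeq gives them for the build GRCm38.p6. Capitals mark the half-site of nuclear receptors, AGGTCA, and sites with up to 2 mismatches to AGGTCANAGGTCA, the pair of half-sites with 1 base between them (DR1) that PPAR and RXR bind together, each read on both strands. Each sequence runs 5′ to 3′ on the strand of its gene. *Cd36* lies at chr5:17835897-17836146 on the minus strand, *Vldlr* at chr19:27216234-27216483, *Fabp7* at chr10:57784673-57784922 and *Fabp1* at chr6:71199629-71199878, all 3 on the plus strand. For *Vldlr*, the upstream one of its annotated starts is shown.
Cd36: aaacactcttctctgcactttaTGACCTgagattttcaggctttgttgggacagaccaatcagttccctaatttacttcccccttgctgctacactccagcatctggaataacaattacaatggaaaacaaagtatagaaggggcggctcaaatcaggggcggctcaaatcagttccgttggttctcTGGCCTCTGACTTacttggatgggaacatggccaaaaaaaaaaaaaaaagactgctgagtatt
Vldlr: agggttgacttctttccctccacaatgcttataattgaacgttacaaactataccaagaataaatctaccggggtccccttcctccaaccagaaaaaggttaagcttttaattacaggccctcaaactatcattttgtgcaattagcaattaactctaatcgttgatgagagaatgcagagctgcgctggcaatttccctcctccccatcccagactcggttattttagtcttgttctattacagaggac
Fabp7: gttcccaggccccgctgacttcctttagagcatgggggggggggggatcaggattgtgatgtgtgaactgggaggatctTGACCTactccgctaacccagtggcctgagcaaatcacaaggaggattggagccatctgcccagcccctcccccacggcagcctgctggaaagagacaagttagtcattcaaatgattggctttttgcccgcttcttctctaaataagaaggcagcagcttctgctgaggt
Fabp1: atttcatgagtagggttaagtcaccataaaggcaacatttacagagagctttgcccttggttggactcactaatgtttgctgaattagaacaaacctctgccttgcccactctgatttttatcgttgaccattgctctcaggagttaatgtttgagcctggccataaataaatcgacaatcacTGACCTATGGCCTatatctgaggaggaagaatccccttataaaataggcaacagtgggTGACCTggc

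The half-site was found in 4 of the 11 upstream regions that RefSeq lists for 8 of the 10 genes, and in 14.0% of 32817 mouse promoters of the same length. *Cd36* held it at position -228 from the start, *Fabp7* at -171, *Slc27a2* at -220, and *Fabp1* at -67 and -9, all on the opposite strand. No region held an exact DR1, which occurred in 0.0335% of all promoters. With up to 2 mismatches a DR1 was found in 2 of the 11 regions, against 3.23% of all promoters. In *Cd36* it began at -63 with 2 mismatches, and in *Fabp1* it began at -67 with 1 mismatch and overlapped the half-site there. Neither motif was found in the upstream regions of *Vldlr*. Such a match describes the letters and not a bound site. *Fabp4* and *Fabp5* have no entry in the table used.

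Of the 10 genes, *Cd36* had the largest rise. Its log2 signal had a lowest value of 9.19, a median of 10.61 and a highest value of 11.91 in mutants, against 8.15, 8.83 and 9.56 in controls. All mutants except mutant 1 (9.19) lay above every control, and mutant 3 was highest. The log2 change was 1.66 ± 0.25 (SE, 95% interval 1.14 to 2.17, n = 10 and 9), a 3.15-fold difference (limma, adjusted p = 4.8e-05), and an exact two-sided permutation test over all 92378 splits of the arrays gave p = 6.5e-05. Leaving out any 1 array kept the change between 1.49 and 1.80, with the call unchanged.

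*Vldlr* rose as well. Mutant signals had a lowest value of 6.42, a median of 7.61 and a highest value of 8.68, and control signals had 5.80, 6.29 and 6.89. Mutant 9 (6.42) was the one mutant within the control range, and mutant 10 was highest. The log2 change was 1.27 ± 0.21 (SE, 95% interval 0.83 to 1.70, n = 10 and 9), or 2.40-fold (limma, adjusted p = 2.0e-04), with p = 1.2e-04 in the exact permutation test. The mutants with the least *Cd36* and the least *Vldlr* were thus different mice. Across the 10 mutants, *Cd36* and *Vldlr* had r = 0.07 (permutation p = 0.864) and rho = -0.04 (permutation p = 0.917). Across the 9 controls, r was 0.59 (exact permutation p = 0.0929) and rho 0.53 (exact permutation p = 0.148).

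The cytosolic carriers moved in both directions. *Fabp7*, the brain-type carrier known from glia, had a lowest value of 7.34, a median of 8.24 and a highest value of 9.41 in mutants, against 6.87, 7.59 and 8.06 in controls. Mutant 7 (7.34) lay within the control range, the other 9 mutants lay above every control, and mutants 6 (9.41) and 3 (9.25) stood highest. The log2 change was 0.84 ± 0.21 (SE, 95% interval 0.41 to 1.28, n = 10 and 9), or 1.79-fold (limma, adjusted p = 0.0097), with p = 0.0019 in the exact permutation test.

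*Fabp5*, the epidermal-type carrier, which many tissues and macrophages express, fell. Its values in mutants were 6.77 at the lowest, 8.21 at the median and 9.54 at the highest, and in controls 7.48, 10.55 and 11.82. Of the 9 controls, 6 lay above every mutant, while control 5 (7.48) and control 2 (8.82) lay within the mutant range and control 7 (9.30) just below the highest mutant. The log2 change was -1.94 ± 0.45 (SE, 95% interval -2.87 to -1.01, n = 10 and 9), so the signal was 3.83-fold higher in controls (limma, adjusted p = 0.0054), and the exact permutation test gave p = 0.0032. The Wilcoxon rank sum test of the study's methods, adjusted over all genes, ended this call (adjusted p = 0.0700). Without control 5 the fall was larger, and over all single arrays left out it ran from -2.28 to -1.74.

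*Fabp1*, the liver-type carrier, reached 16.33 at the lowest, 16.64 at the median and 16.96 at the highest in mutants, against 15.93, 16.38 and 16.68 in controls. The groups overlapped, with 4 mutants above every control. The log2 change was 0.28 ± 0.12 (SE, 95% interval 0.04 to 0.52), with an adjusted p of 0.135 from limma and an exact permutation p of 0.0137 before any adjustment. *Fabp2*, the intestinal-type carrier, lay between 11.78 and 13.32 (median 12.37) in mutants and between 11.50 and 12.83 (median 12.03) in controls, a log2 change of 0.30 ± 0.19 (SE, limma adjusted p = 0.371). The adipocyte-type carrier *Fabp4*, a well-known target of PPAR gamma in fat cells, had a lowest value of 6.67, a median of 7.07 and a highest value of 7.69 in mutants, against 6.27, 7.02 and 7.78 in controls. Its log2 change was -0.00 ± 0.16 (SE), with a 95% interval of -0.34 to 0.33, and its direction changed when single arrays were left out.

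Of the transport proteins, *Slc27a2* (FATP2), a form of liver and kidney that also activates very long-chain fatty acids, came closest to the threshold. Mutant signals ran from 16.77 to 17.30 (median 17.07), and control signals from 16.48 to 17.31 (median 16.58). All 10 mutants lay above the control median, but controls 5 (17.31) and 1 (17.16) were as high as the mutants. The log2 change was 0.31 ± 0.12 (SE, 95% interval 0.06 to 0.55, limma adjusted p = 0.110). It passed the threshold without control 5 (0.38, adjusted p = 0.0292) or without control 1 (0.36, adjusted p = 0.0460), and, together with *Fabp1*, under quantile normalization and under limma's trended and robust variance. *Slc27a1* (FATP1), a form of muscle and fat, lay between 5.20 and 6.41 (median 5.55) in mutants and between 5.36 and 5.86 (median 5.53) in controls. *Slc27a4* (FATP4), which is broadly expressed, lay between 5.65 and 6.60 (median 6.27) in mutants and between 5.79 and 7.19 (median 6.37) in controls. Their log2 changes were 0.04 ± 0.13 (SE, limma adjusted p = 0.896) and -0.16 ± 0.15 (SE, limma adjusted p = 0.598), and the direction of *Slc27a1* turned without mutant 2 (-0.049).

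The genes also differed in how much mice of one genotype varied. *Fabp5* had an SD of 0.88 in mutants, larger than that of 99.4% of all genes, and of 1.43 in controls, larger than that of 99.9%. For *Cd36* the SD was 0.73 in mutants, above 99.0% of genes, and 0.47 in controls, above 89.5%. *Vldlr* had SDs of 0.64 in mutants and 0.34 in controls, and *Fabp7* of 0.61 in mutants and 0.39 in controls. *Slc27a2* was the reverse, with an SD of 0.15 in mutants, above that of only 2.77% of genes, and of 0.30 in controls. The median SD of all genes was 0.308 in mutants and 0.313 in controls. Whether these spreads differed between genotypes was not tested.

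Deviations of the mice from their genotype means were used to name, for each gene that changed, the 3 genes whose pattern over the 19 arrays was most like it among 10848 genes detected on all arrays. These r values describe arrays that each measured both genes, and carry no test. As the highest of 10848 comparisons on few arrays, they are also raised by the choice itself. For *Cd36* they were *Rhbdf2* (r = 0.86), which encodes a partner of the protease ADAM17, *Nt5e* (r = 0.82), the enzyme CD73 that makes adenosine from AMP, and *Il1rn* (r = 0.82), the interleukin 1 receptor antagonist. *Nt5e* rose by 1.96 on the log2 scale (limma, adjusted p = 1.4e-04) and *Il1rn* rose by 0.82 (limma, adjusted p = 0.0252), while *Rhbdf2* had a log2 change of 0.24 (limma, adjusted p = 0.313). For *Vldlr* the 3 genes were *Dpy30* (r = 0.82), a subunit of histone methyltransferase complexes, *5830417I10Rik* (r = 0.75) and *Nudt16* (r = 0.72), a nucleotide hydrolase, none of which passed the test. Within genotypes, r with *Dpy30* was 0.88 in mutants and 0.87 in controls. It was 0.85 and 0.26 with *5830417I10Rik*, and 0.77 and 0.55 with *Nudt16*.

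The 3 genes most like *Fabp5* were *Atp5pb* (r = 0.84), a subunit of ATP synthase, *Senp7* (r = 0.82), a protease that acts on SUMO chains, and *Acss2* (r = 0.80), the cytosolic enzyme that makes acetyl-CoA from acetate. *Acss2* fell with a log2 change of -1.61 ± 0.30 (SE, limma adjusted p = 7.1e-04), and the other pair did not pass the test. Controls 5 and 2, which had low *Fabp5*, had the lowest *Acss2* of the controls, at 11.56 and 11.86. Among mutants, mutant 7 was highest in both genes and mutant 3 lowest in both. Because *Acss2* was picked for its likeness to *Fabp5* on these same arrays, such matches follow from the choice and test nothing.

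**Figure D2:**
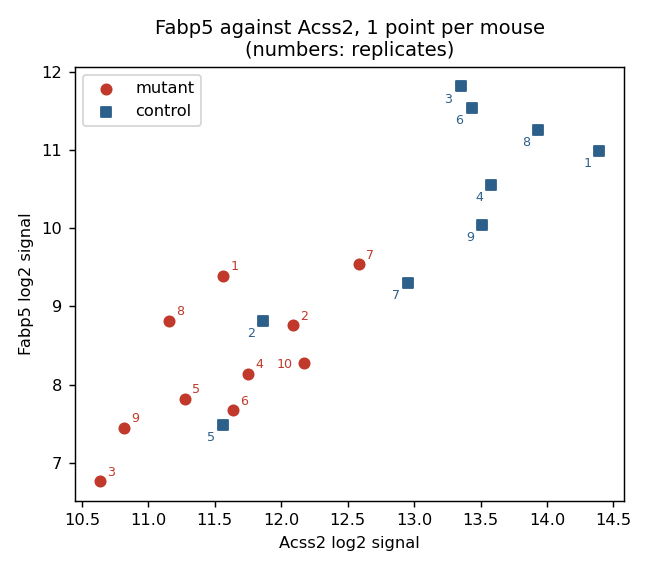
Log2 signal of *Fabp5* against that of *Acss2* in each mouse, mutants as circles and controls as squares, with replicate numbers. Controls 2 and 5 lay among the mutants on both axes, and the other 7 controls had more *Acss2* (12.96 or above) than every mutant (12.58 or below). *Acss2* was picked on these same arrays for its likeness to *Fabp5*.

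The genes most like *Fabp7* were *Cmtm3* (r = 0.88), *Sdc3* (r = 0.88), a heparan sulfate proteoglycan, and *Cybb* (r = 0.88), the catalytic subunit of the phagocyte NADPH oxidase. Of these *Sdc3* rose by 0.57 (limma, adjusted p = 0.0226). Markers of macrophages moved with the genotype as well. Of 7 measured markers, 4 rose, namely *Adgre1* (log2 change 0.55), *Clec4f* (0.72), *Vsig4* (0.87) and *Cd5l* (0.67), and the other 3, *Marco*, *Timd4* and *Csf1r*, had changes of 0.46, 0.36 and 0.28 that did not pass the test. With the methods' t-test 2 of the 7 passed, and with their Wilcoxon test 1. The mean log2 signal of the 7 markers ran from 8.65 to 10.08 (median 8.97) in mutants and from 8.19 to 9.08 (median 8.49) in controls. Mutant 6 was highest in this mean and in *Fabp7*, mutant 7 lowest of the mutants in both, and among controls the highest in both was control 4 and the lowest in both control 2. For *Cd36*, mutant 3 was highest (11.91) with the second highest marker mean (9.49), and controls 4 and 1 were the highest controls in both. Mutant 1, lowest of the mutants in *Cd36* (9.19), had a marker mean of 9.25, the third highest. In *Fabp7* too, mutant 1 (8.13) lay below the mutant median of 8.24. Control 5 was above the control median in *Fabp7* (7.87 against 7.59) and below that of the marker mean (8.46 against 8.49). The part of macrophages in the values of *Fabp7*, *Cd36* and *Fabp5* was not tested.

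**Figure D3:**
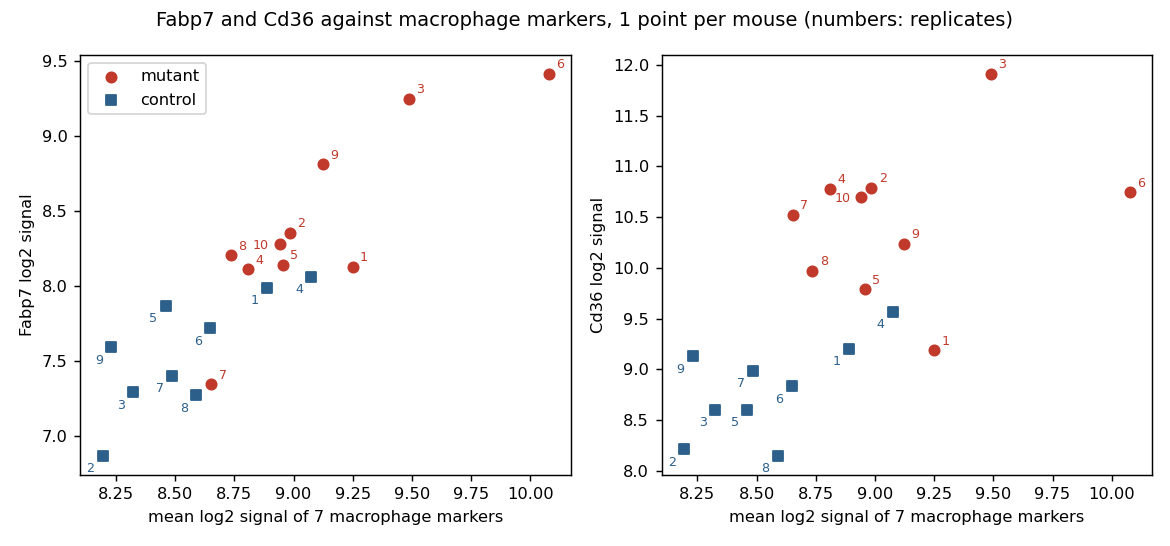
Log2 signal of *Fabp7* (left) and *Cd36* (right) against the mean log2 signal of 7 macrophage markers in each mouse, mutants as circles and controls as squares, with replicate numbers. Mutant 6 (marker mean 10.08) and mutant 3 (9.49) stood apart to the right, with the 2 highest *Fabp7* signals. Mutant 1, next in the marker mean (9.25), had a *Fabp7* signal of 8.13, below the mutant median.

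Other cell types were checked with markers in the same way. None of 7 hepatocyte markers passed the test with limma, the methods' t-test or the methods' Wilcoxon test (0 with an unadjusted limma p and 2 with an unadjusted Wilcoxon p under 0.05), and their mean ran from 18.25 to 18.38 in mutants and from 18.27 to 18.38 in controls. Of the 7, 3 lay at the top of the scale in both groups, such as *Alb* with a mean of 19.91 in mutants and 19.91 in controls (the highest deposited value was 19.93), where a difference may not show. *Cps1*, of the urea cycle, had a log2 change of -0.19 (limma, adjusted p = 0.232), with 5 mutants below every control. None of 7 adipocyte markers passed with any of these tests (0 with unadjusted limma p under 0.05), and the defining markers *Adipoq* and *Lep* were detected on no array. The mean of the adipocyte markers ran from 4.28 to 4.66 in mutants and from 4.18 to 4.60 in controls. Of 7 endothelial markers, *Clec4g* rose by 0.67 (limma, adjusted p = 8.7e-05). Counting it, 3 had an unadjusted limma p under 0.05, and 6 were higher and 1 lower in mutants. The mean of the endothelial markers ran from 8.68 to 9.46 (median 9.16) in mutants and from 8.76 to 9.07 (median 8.87) in controls. The part of endothelial cells in the values of *Cd36* and *Vldlr* was not tested. Among 7 stellate cell markers *Reln* fell (log2 change -0.44), among 4 cholangiocyte markers *Sox9* fell (-0.77), and of 5 skeletal muscle and 5 enterocyte markers 0 passed with limma (2 with an unadjusted p under 0.05 in each list) or with either test of the methods.

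Relatives outside the 10 genes were looked at in the same way. Among 9 further genes of the families, *Fabp3*, *Fabp6*, *Fabp9*, *Fabp12*, *Pmp2*, *Slc27a3*, *Slc27a5* and *Slc27a6*, with *Got2*, whose product also serves as a membrane fatty acid-binding protein, 0 passed with limma (1 with an unadjusted p under 0.05) and 0 with either test of the methods. *Fabp3*, the heart-type carrier, had a log2 change of 0.34 ± 0.15 (SE, limma adjusted p = 0.160). *Slc27a5* (FATP5), the liver form that also activates bile acids, had a log2 change of -0.09 ± 0.10 (SE, limma adjusted p = 0.686). *Fabp12* was detected on no array and *Fabp9* on 1 of 10 mutant and 0 of 9 control arrays. *Fabp6* was detected on 4 of 10 mutant and 3 of 9 control arrays, *Pmp2* on 5 and 2, and *Slc27a6* on 8 and 5. Of these 9 genes, 3 were detected on all arrays, so a change in the others may not show. Among all genes, 10.1% passed with limma in either direction.

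Once inside, fatty acids are activated to acyl-CoA. Of 8 measured long-chain acyl-CoA synthetase and acyl-CoA-binding genes, 1 rose and 1 fell. *Acbd5*, a peroxisomal membrane protein that binds very long-chain acyl-CoA, had a log2 change of 0.56 ± 0.12 (SE, limma adjusted p = 0.0024), and 8 of the 10 mutants exceeded the highest control. *Acsl5*, a long-chain acyl-CoA synthetase of mitochondria and endoplasmic reticulum, had a log2 change of -0.36 ± 0.10 (SE, limma adjusted p = 0.0179), a call that quantile normalization ended (adjusted p = 0.0605).

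Besides *Vldlr*, 11 lipoprotein receptors and their relatives were measured. With limma, *Lrp4*, which is known as a receptor for agrin at nerve-muscle contacts, rose by 0.78 (adjusted p = 0.0036), and the other 10 did not pass the test. *Lrp1*, the liver receptor for chylomicron remnants, had a log2 change of -0.29 (limma, adjusted p = 0.0786), the Wnt co-receptor *Lrp5* of -0.40 (limma, adjusted p = 0.0785), and *Scarb1*, the receptor for high-density lipoprotein, of -0.37 (limma, adjusted p = 0.0793). *Scarb1* passed without control 1 (-0.45, adjusted p = 0.0211) or mutant 5 (-0.42, adjusted p = 0.0491), and *Lrp5* without mutant 4 (-0.46, adjusted p = 0.0409). With all arrays, *Lrp1*, *Scarb1* and *Lrp5* also passed under some other settings of the test, such as the filter on genes above the median signal (adjusted p = 0.0302, 0.0415 and 0.0433). *Lrp8*, a close relative of *Vldlr*, was detected on no array.

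Lipases free the fatty acids of lipoproteins at the vessel wall, and of 8 measured lipases and regulators 1 rose and 1 fell. *Lipg*, endothelial lipase, had a log2 change of 1.19 ± 0.20 (SE, limma adjusted p = 2.1e-04). *Lmf1*, a chaperone that lipoprotein lipase and its relatives need to mature, had a log2 change of -1.29 ± 0.15 (SE, limma adjusted p = 2.0e-06), and no mutant reached the lowest control. The lipoprotein lipase inhibitors *Angptl4* and *Angptl8* varied widely between mice. *Angptl4* had a log2 change of 0.90 ± 0.41 (SE, limma adjusted p = 0.193) and *Angptl8* of -1.42 ± 0.67 (SE, limma adjusted p = 0.213). Without control 1, *Angptl4* passed the test (1.18, limma adjusted p = 0.0349). Of 4 measured cellular retinoid-binding genes, which belong to the same protein family as the FABPs, 0 passed with limma (1 with an unadjusted p under 0.05) and 0 with either test of the methods.

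**Figure D4:**
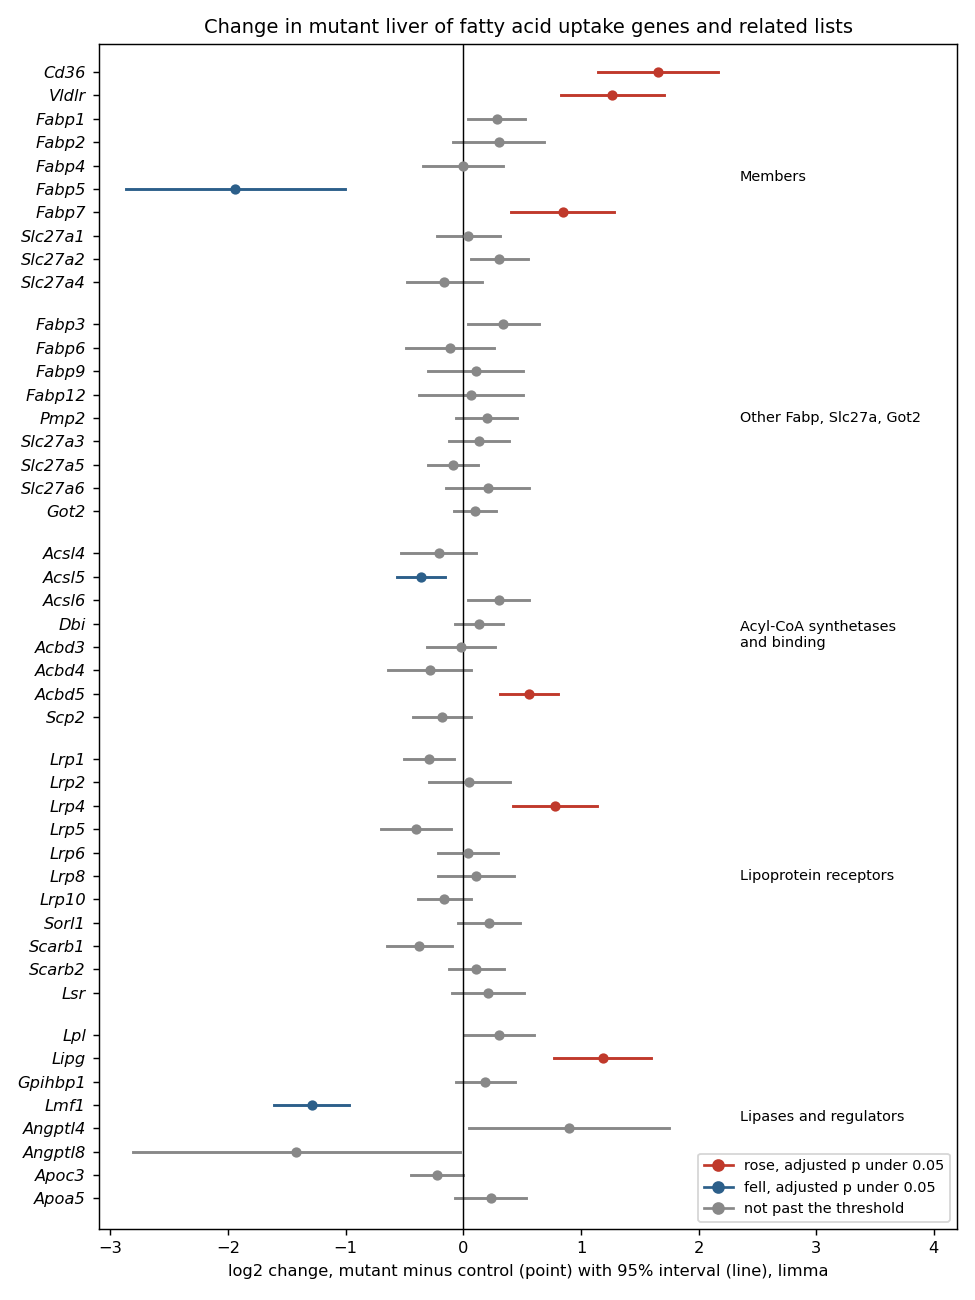
Log2 change (mutant minus control, points) with the 95% interval of limma (lines) for the 10 genes, their relatives, acyl-CoA synthetases, lipoprotein receptors and lipases. Beside *Cd36*, *Vldlr*, *Fabp7* and *Fabp5*, the genes past the threshold were *Acbd5*, *Acsl5*, *Lrp4*, *Lipg* and *Lmf1*.

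Of the PPAR receptors, *Pparg* rose by 3.25 ± 0.26 (SE, limma adjusted p = 2.8e-09), with signals of 7.64 at the lowest, 8.47 at the median and 9.54 at the highest in mutants, against 4.39, 5.22 and 6.39 in controls, without overlap. It was detected in 8 of 9 controls, and control 8 (4.39) lay at background, so the size of this change depends partly on the background. *Ppara* had a log2 change of 0.11 ± 0.15 (SE, limma adjusted p = 0.747). The RXR gene *Rxrg* rose by 0.72 ± 0.17 (SE, limma adjusted p = 0.0057), with a mean of 6.42 in mutants and 5.69 in controls. The brighter RXR gene *Rxra* had means of 11.20 and 11.30 and a log2 change of -0.09 (limma, adjusted p = 0.670). For *Rxrb* the log2 change was 0.04 (limma, adjusted p = 0.894). Within genotypes, r of *Pparg* with *Cd36* was 0.16 in mutants (permutation p = 0.667, rho -0.15 with p = 0.679) and 0.64 in controls (exact permutation p = 0.0692, rho 0.63 with p = 0.0760). With *Vldlr* it was 0.02 in mutants (permutation p = 0.955, rho 0.22 with p = 0.536) and 0.67 in controls (exact permutation p = 0.0486, rho 0.62 with p = 0.0857). Without the 2 arrays farthest from the *Pparg* median, r with *Cd36* was -0.095 in mutants and 0.81 in controls, and r with *Vldlr* was -0.19 in mutants and 0.82 in controls. In controls *Pparg* also had r = -0.77 with *Fabp4* (exact permutation p = 0.0137, rho -0.63 with p = 0.0760, r = -0.55 without the 2 farthest) and r = 0.73 with *Fabp7* (exact permutation p = 0.0292, rho 0.75 with p = 0.0255, r = 0.58 without the 2 farthest).

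In all, 130 relations within a genotype were computed, between all pairs of the 10 genes and of each gene with *Pparg* and *Mmut*. After Benjamini-Hochberg adjustment 0 passed, by r (9 with an unadjusted permutation p under 0.05, smallest adjusted p = 0.202) or by rho (6 unadjusted, smallest adjusted p = 0.663). The strongest were *Fabp4* with *Slc27a2* in controls (r = -0.86, exact permutation p = 0.0016, rho -0.82 with p = 0.0108, r = -0.74 without the 2 farthest arrays) and *Fabp5* with *Fabp7* in mutants (r = -0.80, permutation p = 0.0051, rho -0.72 with p = 0.0234, r = -0.58 without the 2 farthest arrays). Of the 45 pairs among the 10 genes, r was above 0 in 25 in mutants and in 24 in controls.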

How the data were processed

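Each of 10 mutant and 9 control males gave 1 Mouse Clariom S array of amplified liver RNA. Normalization by SST-RMA in the array maker's software was done by the authors, who deposited log2 signals per probe set (the submitters' processing notes name RMA). Beside each signal the authors deposited a p-value for detection above background, which was used at a threshold of 0.05. A second deposited table of log2 signals differed from the first by at most 0.0005. Normalization over all arrays assumes that most genes do not change, and it can shift dim and very bright genes. The genome build behind the probe sets is not given in the sources used here.

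No further normalization was applied. The table holds 22206 probe sets, of which 19572 have 1 gene symbol and 2634 were left out because the annotation gives them none. The brightest probe set on average stood for each of 55 genes that had more than 1, giving 19505 genes. The genotypes were compared in R 4.3.3 with limma 3.58.1 (two-sided, moderated by eBayes, Benjamini-Hochberg over all genes, threshold 0.05), after the procedure was tested on simulated data. Differences in means of single genes were also tested two-sided by exact permutation, for which 1.1e-05 is the smallest p. Correlations had exact permutations in controls and 100000 in mutants. Other steps used Python 3.11.15. Each mouse is a replicate.

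Named are the 10 genes, *Mmut*, *Pparg*, *Ppara*, up to 4 genes per related list with the smallest adjusted p, the 3 genes most like each changed gene, and cell type markers that passed or lay at background. *Slc27a5*, *Lrp8*, *Fabp6*, *Fabp9*, *Fabp12*, *Rxrb*, *Marco*, *Timd4* and *Csf1r* were named after their values were seen. The genes and lists were chosen with earlier results of these data known. Some genes of the lists were not analysed here. Alternatives were the variance model, the t-test and Wilcoxon rank sum test of the study's methods, the second table, median centring, quantile normalization, filters on dim genes, array weights, the mean over probe sets, the replicate number as a block, and leaving out each array. Upstream sequences are from RefSeq, GRCm38.p6. Scanner images were not used here.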

Additional observations from a re-analysis of the deposited data

Results flagged for a closer look

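In 35 named genes, each genotype was searched for a single mouse far from the others of its group, a check that chance meets in about 1 in 20 groups. Of 70 groups, 4 had such a mouse, all among the mutants. *Slc27a1* had 6.41 in mutant 2, the highest of its group, with the next mutant at 5.84. *Acsl5* had 15.6 in mutant 10, the highest, with the next at 15.3. *Lrp1* had 12.4 in mutant 8, the lowest, with the next at 12.7. *Rxrg* had 5.67 in mutant 9, the lowest, with the next at 6.27, and mutant 9 was also the lowest mutant in *Vldlr* (6.42).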

How the results depend on the processing

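The calls of *Cd36*, *Vldlr* and *Fabp7* held under all 12 alternatives run and whichever single array was left out. That of *Fabp5* held under all of these except the methods' Wilcoxon test (adjusted p = 0.0700). This test left 3 of the 10 genes higher and 0 lower, against 804 and 960 of all 19505 genes. In either direction, 6 of the 10 had an unadjusted Wilcoxon p under 0.05. The share of all genes with such a p was not computed, so that count has no background. The methods' t-test called 4 of the 10, against 808 risen and 947 fallen genes in all. The count of genes that rose was 5 with limma's trended and robust variance and 5 with quantile normalization, which both added *Fabp1* (adjusted p = 0.0477 and 0.0422) and *Slc27a2* (0.0329 and 0.0497). With single arrays left out, 3 to 4 rose and 1 fell. The change of *Fabp4* turned positive with quantile normalization (0.017) and ran from -0.10 to 0.086 with single arrays left out, and that of *Slc27a1* ran from -0.049 to 0.085. Same-numbered mutants and controls deviated from their group means with correlations between -0.09 and 0.06. Differently numbered mice were not compared, so these values cannot show whether same-numbered mice share a litter or batch. The replicate number as a block (a replicate block without mutant 10, which has no partner) gave 3 risen and 1 fallen gene of the 10. In all it gave 717 risen and 771 fallen genes, against 820 and 944 with mutant 10 left out and no block. With all arrays and no block there were 923 and 1039. Centring arrays on their medians gave 787 risen and 1237 fallen genes. Leaving out control 1 and mutant 6 together, chosen after seeing the data, added *Slc27a2* (0.39, adjusted p = 0.0356), *Scarb1* (-0.45, adjusted p = 0.0280), *Angptl4* (1.32, adjusted p = 0.0170) and *Angptl8* (-2.12, adjusted p = 0.0202). *Lrp1* passed under 5 alternatives (adjusted p down to 0.0174), *Scarb1* under trended and robust variance (0.0400), the Wilcoxon test (0.0457) and the median signal filter (0.0415), *Lrp5* under that filter (0.0433), and *Acsl6* without control 1 (adjusted p = 0.0457). The causes of these changes were not tested.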
